A study of Mus musculus with 12 samples.

Results

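The 51 genes described here encode subunits of the oxidative phosphorylation complexes I to V and lie in the nuclear genome of the mouse. They were chosen by gene name, with earlier results of these data known. In all 52 subunit genes were listed, and 51 of them had a probe set under that symbol among the 19505 genes with a named probe set. Complex I gave 24 members, complex II 4, complex III 6, complex IV 7 and complex V 10 of the 11 listed. Ndufa4 was counted with complex I by its name, although its protein has since been assigned to complex IV. The remaining complex V gene, Atp5f1, is carried by the platform under its newer symbol Atp5pb and is given apart. Subunits that the mitochondrial genome encodes were not analysed here.

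Expression was measured in myocardium of 3 groups of 4 mice, with 1 array for each mouse. AngIV mice were made diabetic by streptozotocin, a toxin for pancreatic beta cells, injected into the peritoneum on 5 days in a row, and were then infused with angiotensin IV, a fragment of angiotensin II, at a dose called high (2.88 mg/kg/day) between the ends of week 8 and week 24. DM mice were made diabetic by the same injections and had no angiotensin IV, and the labels name no sham infusion for them. NC mice received vehicle injections for 5 days. Diabetic mice were kept for the experiment if their fasting glucose reached 16.7 mM when checked 2 weeks after the injections. All 3 groups carry a label of 6 months, which does not say whether it is an age or a time, and the labels give neither strain nor sex. No mice without diabetes received angiotensin IV, so a difference between AngIV and NC holds both treatments.

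Oxidative phosphorylation is the last stage of fuel oxidation in mitochondria. Complexes I and II take electrons from NADH and succinate, complexes III and IV pass them through cytochrome c to oxygen, and complexes I, III and IV pump protons, whose return flow through complex V, the ATP synthase, makes ATP. The beating heart depends on it for most of its ATP, and heart muscle is one of the tissues richest in these transcripts.

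The deposited values are log2 signals from RMA (robust multi-array average), and a difference of 1 is a doubling of signal. The background of an array is taken here as the level under which 95% of its negative controls lay (5.39 to 5.60). Cardiomyocyte markers were above it on all arrays for 10 of 10 genes, and their mean lay between 11.04 and 11.20, so the arrays held the labelled tissue. Atrial genes were uneven. Myl7, a myosin light chain of the atria, read 3.53 to 3.94 on the AngIV arrays, 8.86, 9.68, 3.97 and 8.10 on DM replicates 1 to 4, and 10.08, 4.28, 7.90 and 3.72 on NC replicates 1 to 4. The mean of the 7 atrial markers ranged from 4.87 to 5.19 in AngIV, from 4.62 to 7.52 in DM and from 5.11 to 8.02 in NC, with 1 of the 7 above background on all arrays and Bmp10 on none. The ventricular light chain Myl2 stayed between 11.71 and 11.90. Results for the members and the counts over all genes were therefore also computed with the atrial mean as a covariate. The same was done without the 5 arrays on which this mean exceeded 6 (DM replicates 1, 2 and 4 and NC replicates 1 and 3). Other genes set beside the members were read from the main fit only. In whole tissue, fewer cells of a type and less RNA per cell cannot be told apart.

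The members that the comparisons turn on are Atp5g1 and Atp5d, the pair that passed the test in AngIV against NC, and Ndufs8, which had the largest change in DM against NC. Their promoters are shown because the values turn on these genes. Each line holds 280 bases of the GRCm38.p6 assembly from RefSeq, 250 before the start of the gene and 30 from the start on, written 5′ to 3′ along the gene's strand. Atp5g1 lies on the minus strand at chr11:96075602-96075881, Atp5d on the plus strand at chr10:80142025-80142304 and Ndufs8 on the minus strand at chr19:3912745-3913024. Capitals mark a match to the ETS motif.
Atp5g1: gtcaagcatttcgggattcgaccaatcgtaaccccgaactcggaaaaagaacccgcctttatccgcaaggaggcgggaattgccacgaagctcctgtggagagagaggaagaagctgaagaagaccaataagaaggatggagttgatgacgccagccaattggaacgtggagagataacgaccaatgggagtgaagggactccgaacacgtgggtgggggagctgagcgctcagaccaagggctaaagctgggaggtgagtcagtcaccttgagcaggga
Atp5d: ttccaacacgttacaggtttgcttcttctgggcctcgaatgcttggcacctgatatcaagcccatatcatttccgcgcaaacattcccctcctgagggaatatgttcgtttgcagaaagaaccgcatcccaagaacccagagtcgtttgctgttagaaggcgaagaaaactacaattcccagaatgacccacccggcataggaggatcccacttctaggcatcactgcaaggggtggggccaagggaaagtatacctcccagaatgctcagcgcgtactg
Ndufs8: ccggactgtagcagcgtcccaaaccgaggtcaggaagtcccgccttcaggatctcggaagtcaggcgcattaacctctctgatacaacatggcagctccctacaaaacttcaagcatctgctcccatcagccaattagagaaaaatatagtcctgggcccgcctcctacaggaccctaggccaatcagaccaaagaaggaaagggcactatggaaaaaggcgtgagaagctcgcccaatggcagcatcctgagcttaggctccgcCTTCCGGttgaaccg
Promoters of 300 bases (250 before and 50 from the start on) were held for 40 members and for 27025 genes in all, and 4 motifs of factors known to regulate respiratory chain genes were searched on both strands. The ETS motif CCGGAAG, which the capitals above hold on the other strand and which is the core bound by GABP and its relatives, was found for 10 of 40 members (25%), against 9.93% of all genes. The YY1 motif AAGATGGCG was found for 5 of 40 members (Atp5j, Ndufa9, Ndufs4, Ndufs6 and Ndufs7), against 1.64% of all genes. The estrogen-related receptor motif TCAAGGTCA was found for 2 members (5%: Atp5g3 and Sdhd), against 0.466%. The NRF1 motif GCGCATGCG was found for 2 members (5%: Ndufa8 and Uqcrc1), against 1.95%. A gene was counted once however many matches it held, and none of the motifs contains another. The YY1 and NRF1 letters were shortened after a longer form had been searched. The 27025 genes were not limited to the genes tested on the arrays. The windows of Atp5g1 and Atp5d held none of the 4 sets of letters. A match is a description of the letters in this window and not a binding site.

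All 51 members were bright. Their means over the 12 arrays ran from 8.14 to 11.85, and the lowest single reading of any member was 7.98, above background on every array. All 51 passed the filter that removed the dimmest 30% of genes. The mean over the members was 10.05 ± 0.015 in AngIV, 10.06 ± 0.075 in DM and 10.11 ± 0.057 in NC (log2, SD, n = 4 each). These means overlapped between AngIV and DM, between DM and NC and between AngIV and NC, since NC replicate 1 (10.02) lay below all 4 AngIV arrays (10.04 to 10.07).

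The members varied more from mouse to mouse in DM than in the other groups. The median SD of a member was 0.067 in AngIV, 0.127 in DM and 0.074 in NC. For the 904 genes at least as bright on average as the dimmest member, members included, the medians were 0.093 in AngIV, 0.129 in DM and 0.112 in NC. Over all genes tested they were 0.147 in AngIV, 0.167 in DM and 0.176 in NC. The DM arrays lay apart from each other: DM replicate 4 gave the highest reading of all 12 arrays for 21 of 51 members (41.2%), a place it took for 8.28% of all genes. DM replicate 1 gave the lowest reading for 11 members (21.6%, against 9.87% of all genes), and DM replicate 2 for 8 (15.7%, against 7.76%). Outside DM, NC replicate 1 gave the lowest reading for 10 members (19.6%, against 10.5%). These 4 arrays were also among the 5 with high atrial markers, and the part of atrial tissue in the spread was not tested. The plot of all members by array shows this split of the DM columns.

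**Figure D1:**
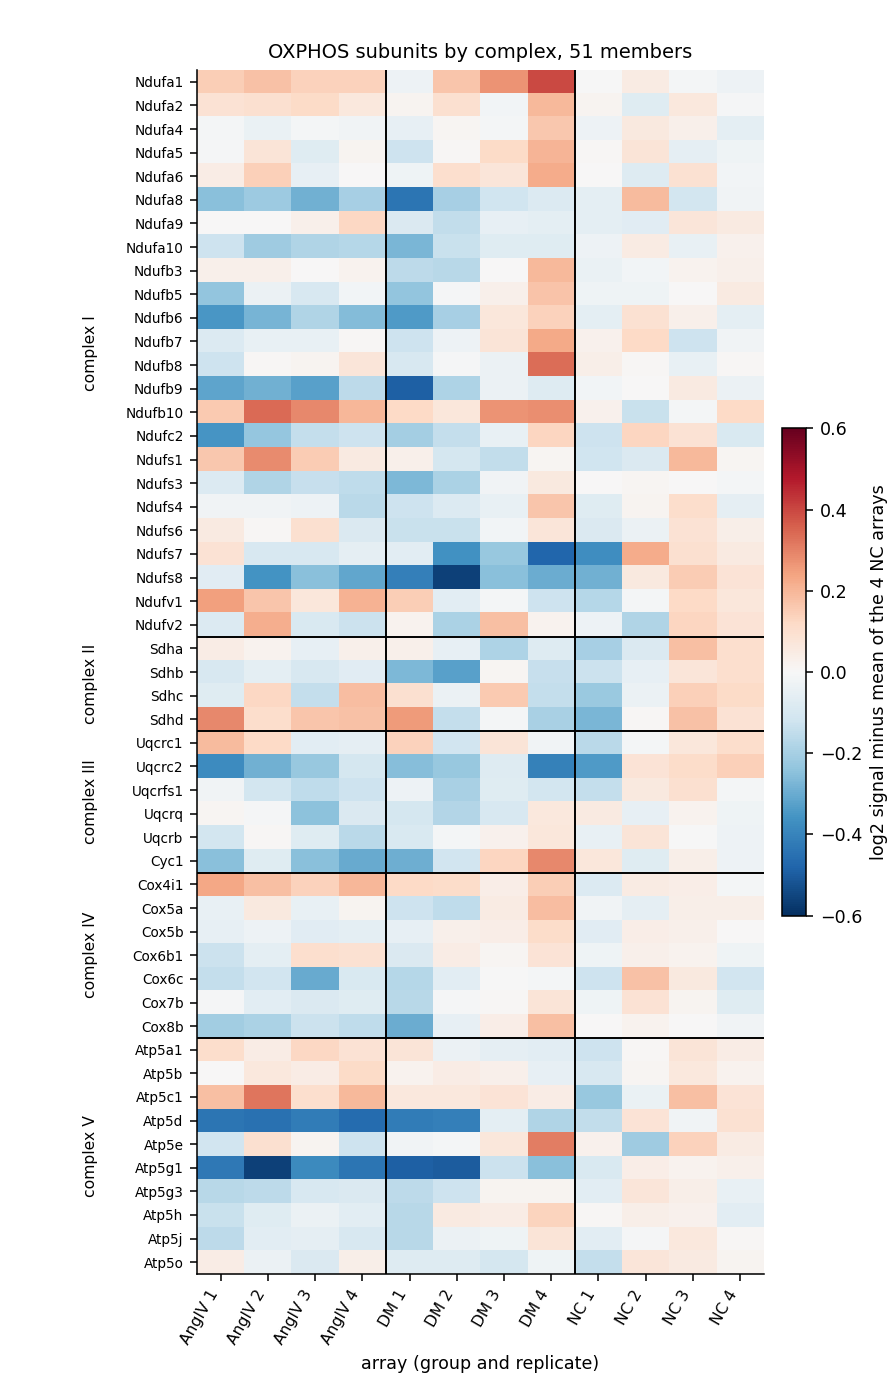
Log2 signal of each of the 51 members (rows, by complex) on each of the 12 arrays (columns), as the difference from the mean of the 4 NC arrays, blue for lower and red for higher. Atp5d and Atp5g1 are the darkest blue rows on the 4 AngIV arrays and are also dark on DM replicates 1 and 2. Ndufb9 is about as dark on DM replicate 1, and Ndufs8 is darker on DM replicate 2. DM replicate 4 holds the highest reading for 21 members.

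In AngIV against DM, limma called 0 of 13653 genes (0%) at an adjusted p under 0.05, and 0 of 51 members. At an unadjusted p under 0.05, 1 member was higher (Ndufs1; 5.27% of all genes were) and 0 were lower (3.51% of all genes). The change was positive for 20 members (39.2%, against 52.9% of all genes) and negative for 31, with a median of -0.027 (all genes 0.012). Sizes were small in this fit: all 51 members changed by less than 0.25 on the log2 scale, as did 86.6% of all genes. The 95% interval lay within 0.5 of 0 for 50 of 51. The exception was Ndufs7, whose interval ran to 0.52. The lowest adjusted p of a member was 0.554. Some changes were larger in the atrial settings and others smaller. With the atrial covariate Atp5d had -0.32, Ndufb6 -0.275, Cyc1 -0.264 and Ndufs1 0.227, and 0 members were called. Without the 5 arrays high in atrial markers, which leaves DM replicate 3 alone, these genes had -0.386, -0.341, -0.348 and 0.312. Smaller with the covariate were Ndufs7 (0.247 to 0.114), Sdhd (0.211 to 0.14), Ndufv1 (0.185 to 0.146) and Atp5c1 (0.136 to 0.079). Without the 5 arrays Ndufs7 had 0.19, Sdhd 0.204, Ndufv1 0.188 and Atp5c1 0.113. The part of atrial tissue in these changes was not tested.

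In DM against NC, limma called 3 of 13653 genes (0.0220%) and 0 members. At an unadjusted p under 0.05, 4 members were lower (Atp5g1, Ndufs8, Atp5d and Ndufs7; 7.84%, against 5.08% of all genes) and 0 were higher (5.62% of all genes). Without the 5 arrays high in atrial markers, which leaves 1 DM array and 2 NC arrays, 0 members were lower at this level (2.79% of all genes in that fit); the lone DM array is then assumed to vary like the other groups. The change was positive for 19 members (37.3%, against 49.6% of all genes) and negative for 32, with a median of -0.023 (all genes -0.002), and it was below 0.25 for 47 of 51 (92.2%, against 84.2% of all genes).

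In AngIV against NC, limma called 293 of 13653 genes (2.15%), 208 higher (1.52%) and 85 lower (0.623%). Of the members 2 were called, Atp5g1 and Atp5d, and both fell. At an unadjusted p under 0.05, 5 members were lower (9.80%, against 7.74% of all genes) and 2 were higher (3.92%, against 10.9%). Without the 5 arrays high in atrial markers 0 members were called, and 7 lower (13.7%, against 6.85% of all genes in that fit) and 0 higher members (9.6% of all genes) had an unadjusted p under 0.05. The change was positive for 19 members (37.3%, against 50.6% of all genes) and negative for 32, with a median of -0.036 (all genes 0.003), and it was below 0.25 for 47 of 51 (92.2%, against 76.6% of all genes). The AngIV and NC arrays did not overlap for 11 members that were lower in AngIV (21.6%, against 5.17% of all genes) and 3 that were higher (5.88%, against 7.59%). The 11 were Atp5d, Atp5g1, Atp5g3, Cox8b, Cyc1, Ndufa8, Ndufa10, Ndufb6, Ndufb9, Ndufc2 and Ndufs3. Against NC replicates 2 and 4 alone, the NC arrays low in atrial markers, the counts were 17 lower (33.3%, against 12.7% of all genes) and 8 higher (15.7%, against 14.2%). The mean of the 5 fibroblast markers measured, all above background, ranged from 7.13 to 7.53 in AngIV and from 7.36 to 7.91 in NC, and that of the 4 macrophage markers measured from 5.67 to 6.42 in AngIV and from 5.40 to 5.91 in NC. Their part in the members' values was not tested. Both comparisons with NC use the same 4 NC arrays, and both comparisons with DM arrays use the same 4 DM arrays, so their values are not independent of each other. The plot of changes with intervals sets the 3 comparisons side by side.

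**Figure D2:**
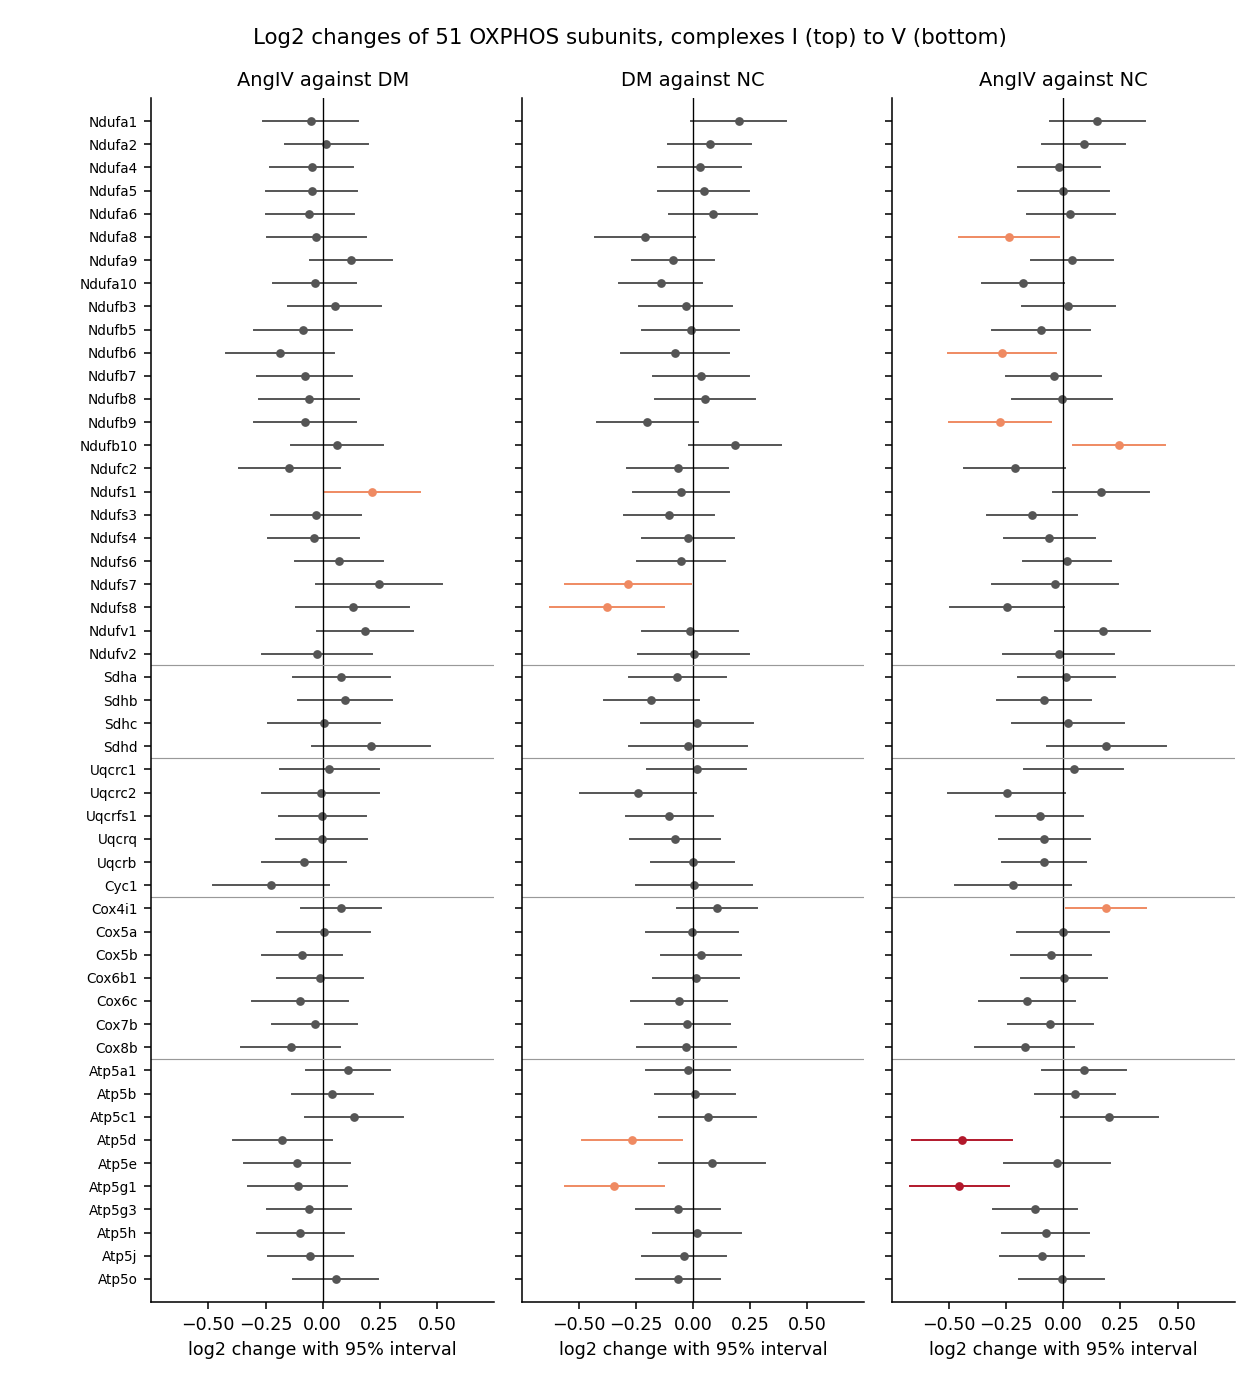
Log2 change with its 95% interval (x axis) for each of the 51 members (rows, complexes I at the top to V at the bottom, separated by lines) in AngIV against DM, DM against NC and AngIV against NC. Dark red marks an adjusted p under 0.05 (Atp5d and Atp5g1 in AngIV against NC), orange an unadjusted p under 0.05 only, and grey the rest, whose intervals all hold 0.

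Complex V held both called members. Atp5g1 encodes subunit c, which forms the ring that turns in the membrane as protons pass. It read 10.85, 10.72, 10.90 and 10.84 on AngIV replicates 1 to 4, 10.79, 10.78, 11.15 and 11.03 on DM replicates 1 to 4, and 11.19, 11.32, 11.30 and 11.31 on NC replicates 1 to 4. All 4 AngIV arrays and all 4 DM arrays lay below all 4 NC arrays, and DM replicates 1 and 2 lay with the AngIV arrays. The change was -0.455 ± 0.102 (SE) in AngIV against NC, 1.37-fold lower (limma adjusted p = 0.0329). It was -0.345 ± 0.102 in DM against NC (limma adjusted p = 0.227) and -0.110 ± 0.102 in AngIV against DM (limma adjusted p = 0.764).

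Atp5d encodes the delta subunit of the central stalk, which joins the turning ring to the catalytic head. It read 9.59, 9.58, 9.61 and 9.57 on AngIV replicates 1 to 4, 9.61, 9.62, 9.97 and 9.85 on DM replicates 1 to 4, and 9.88, 10.11, 10.01 and 10.12 on NC replicates 1 to 4. The AngIV arrays spanned a narrow range below all NC arrays and just below the lowest DM array, DM replicate 3 lay within the NC range and DM replicate 4 just under it. The change was -0.443 ± 0.102 (SE) in AngIV against NC, 1.36-fold lower (limma adjusted p = 0.0366), -0.267 ± 0.102 in DM against NC (limma adjusted p = 0.355) and -0.177 ± 0.102 in AngIV against DM (limma adjusted p = 0.625).

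Both calls sat close to the threshold. Without any 1 of the AngIV or NC arrays the limma adjusted p in AngIV against NC was 0.0539 to 0.0949 for Atp5g1 and 0.0457 to 0.0934 for Atp5d, which stayed called only without NC replicate 1. Neither was called when the dim genes were kept (adjusted p = 0.055 and 0.0621). Without the 5 arrays high in atrial markers the changes were -0.491 for Atp5g1 and -0.525 for Atp5d, larger than with them, and neither was called (adjusted p = 0.0993 and 0.0717). With the atrial mean as a covariate they were -0.559 and -0.571, and both were called (adjusted p = 0.0145 and 0.0103). In DM against NC the changes were -0.332 for Atp5g1 and -0.251 for Atp5d with the covariate. Without the 5 arrays they were -0.171 and -0.140, but this rests on DM replicate 3 alone, the highest DM array for both genes. The changes in AngIV against DM were -0.227 for Atp5g1 and -0.32 for Atp5d with the covariate. Against DM replicate 3 alone they were -0.32 and -0.386.

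The other genes of subunit c did not pass. Atp5g3, a member, had -0.125 ± 0.086 in AngIV against NC (limma adjusted p = 0.464), with no overlap between the AngIV and NC arrays. Atp5g2, not a member, had -0.143 ± 0.108 (limma adjusted p = 0.517). The 3 genes encode the same mature protein behind different leader peptides, and how far their probe sets share sequence was not tested. The genes of the catalytic head did not pass: Atp5b, the catalytic beta subunit, had 0.052 ± 0.083 and Atp5a1, the alpha subunit, 0.089 ± 0.085 in AngIV against NC (limma adjusted p = 0.792 and 0.627). The gamma subunit gene Atp5c1, which encodes the shaft inside the head, read 11.34, 11.48, 11.26 and 11.35 on AngIV replicates 1 to 4, 11.22, 11.22, 11.24 and 11.20 on DM replicates 1 to 4, and 10.93, 11.12, 11.34 and 11.24 on NC replicates 1 to 4. It lay above all DM arrays in AngIV, at 0.136 ± 0.10 (limma adjusted p = 0.701). Non-overlap of this kind was seen for 3 members higher in AngIV than in DM (Atp5c1, Ndufa9 and Ndufs1; 3.57% of all genes) and 1 lower (Atp5d; 2.19% of all genes).

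Over its 10 members, complex V averaged 10.70 ± 0.015 in AngIV, 10.73 ± 0.067 in DM and 10.79 ± 0.066 in NC (log2, SD, n = 4 each), with a median change of -0.058 in AngIV against DM, -0.031 in DM against NC and -0.053 in AngIV against NC. Atp5pb, the peripheral stalk gene listed as Atp5f1, read 10.28, 10.33, 10.35 and 10.35 on AngIV replicates 1 to 4, 10.21, 10.29, 10.44 and 10.40 on DM replicates 1 to 4, and 10.44, 10.53, 10.57 and 10.49 on NC replicates 1 to 4. The AngIV arrays lay below the NC arrays, and the change of -0.183 ± 0.086 did not pass (limma adjusted p = 0.271).

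**Figure D3:**
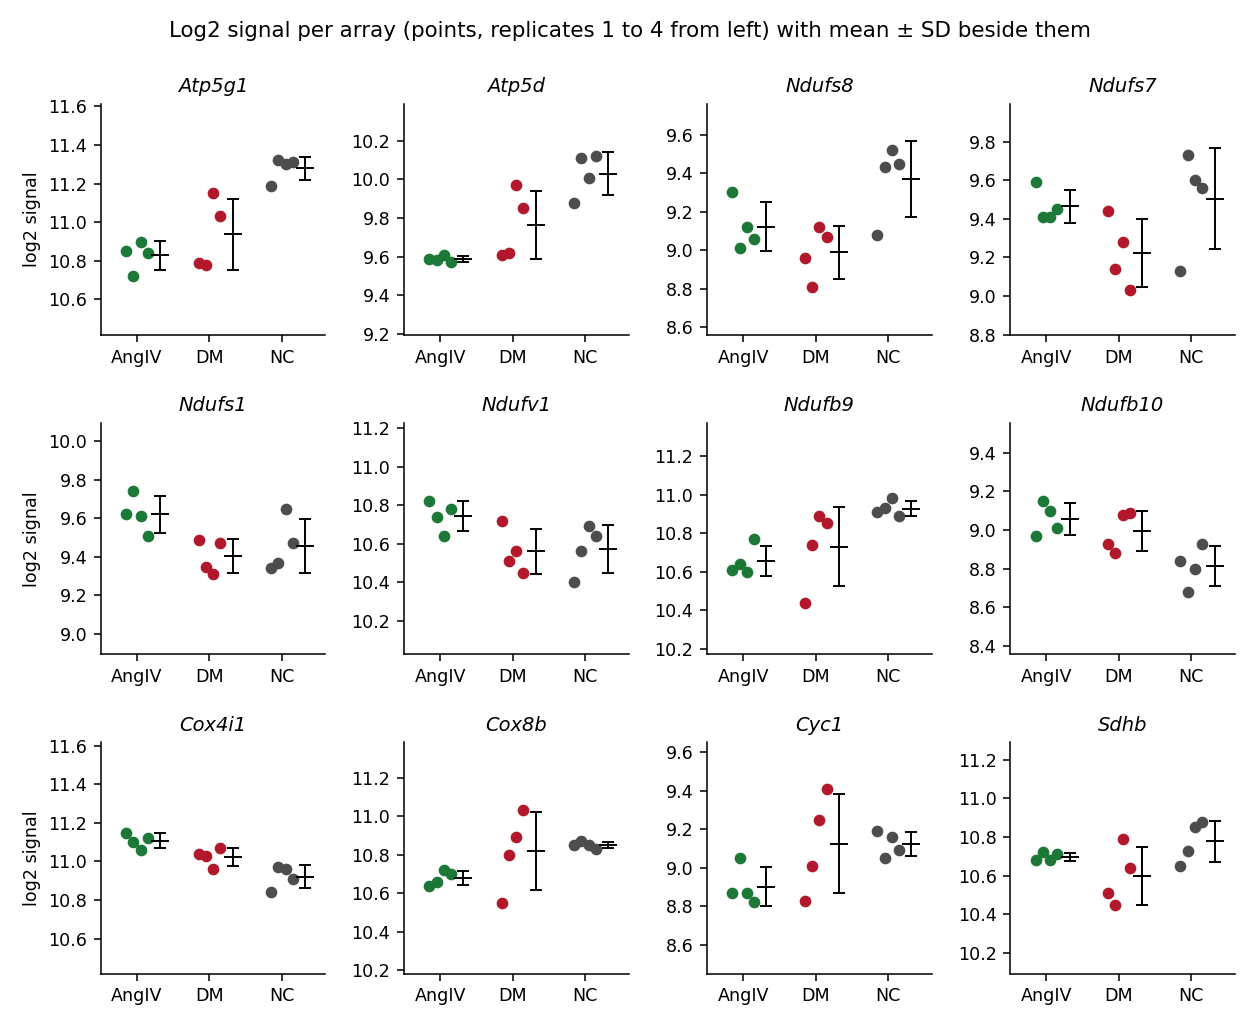
Log2 signal (y axis, the same span in each panel) of 12 members on each array, with replicates 1 to 4 from left to right within AngIV, DM and NC and the mean ± SD (n = 4) beside them. For Atp5g1 and Atp5d the 4 AngIV points lie below the 4 NC points, and for Cyc1 and Cox8b the DM points spread over both.

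In complex I, which takes electrons from NADH, 0 of 24 members were called in any of the 3 comparisons, and its mean was 9.75 ± 0.012 in AngIV, 9.74 ± 0.098 in DM and 9.79 ± 0.043 in NC (log2, SD, n = 4 each). The electron-carrying core held the largest difference of DM from NC. Ndufs8, an iron-sulfur subunit close to the ubiquinone site, read 9.30, 9.01, 9.12 and 9.06 on AngIV replicates 1 to 4, 8.96, 8.81, 9.12 and 9.07 on DM replicates 1 to 4, and 9.08, 9.43, 9.52 and 9.45 on NC replicates 1 to 4. NC replicate 1 lay within the DM range and the other 3 NC arrays above it. The change was -0.377 ± 0.116 (SE) in DM against NC (limma adjusted p = 0.246), 0.131 ± 0.116 in AngIV against DM (adjusted p = 0.748) and -0.246 ± 0.116 in AngIV against NC (adjusted p = 0.272). The promoter with the ETS letters in capitals is that of this gene.

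Ndufs7, the neighbouring iron-sulfur subunit, read 9.59, 9.41, 9.41 and 9.45 on AngIV replicates 1 to 4, 9.44, 9.14, 9.28 and 9.03 on DM replicates 1 to 4, and 9.13, 9.73, 9.60 and 9.56 on NC replicates 1 to 4. NC replicate 1 stood apart from the other 3 NC arrays, within the DM range. The change was 0.247 ± 0.129 in AngIV against DM (limma adjusted p = 0.594), the highest of any member there, -0.283 ± 0.129 in DM against NC (adjusted p = 0.452) and -0.036 ± 0.129 in AngIV against NC (adjusted p = 0.917). Ndufs7 was thus lowest in DM by its mean, but its groups overlapped in all 3 comparisons and none passed. With the atrial covariate its change in AngIV against DM was 0.114.

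Ndufs1, the largest iron-sulfur subunit, read 9.62, 9.74, 9.61 and 9.51 on AngIV replicates 1 to 4, 9.49, 9.35, 9.31 and 9.47 on DM replicates 1 to 4, and 9.34, 9.37, 9.65 and 9.47 on NC replicates 1 to 4. The AngIV arrays lay above all DM arrays, by 0.216 ± 0.099 (limma adjusted p = 0.554), and the 95% interval ran from 0.005 to 0.427. Ndufv1, which binds NADH, had 0.185 ± 0.098 in AngIV against DM (limma adjusted p = 0.596). The 2 genes had -0.052 ± 0.099 and -0.013 ± 0.098 in DM against NC, with adjusted p-values of 0.902 and 0.981. Without the 5 arrays high in atrial markers Ndufs1 had 0.312 in AngIV against DM, with an adjusted p of 0.657.

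Accessory subunits of complex I lay on both sides. In AngIV against NC, Ndufb9 had -0.276 ± 0.104, Ndufb6 -0.268 ± 0.111 and Ndufa8 -0.238 ± 0.102, and Ndufb10 had 0.245 ± 0.094, with limma adjusted p-values from 0.172 to 0.227. Ndufb9 read 10.61, 10.64, 10.60 and 10.77 on AngIV replicates 1 to 4, 10.44, 10.74, 10.89 and 10.85 on DM replicates 1 to 4, and 10.91, 10.93, 10.98 and 10.89 on NC replicates 1 to 4. Ndufb10 read 8.97, 9.15, 9.10 and 9.01 on AngIV replicates 1 to 4, 8.93, 8.88, 9.08 and 9.09 on DM replicates 1 to 4, and 8.84, 8.68, 8.80 and 8.93 on NC replicates 1 to 4. The first was lower and the second higher in AngIV than on any NC array. In DM against NC the members without overlap were Atp5g1, Ndufa10 and Ndufb9, all lower (5.88%, against 2.45% of all genes), and 0 were higher (2.84% of all genes). Ndufa1, a small membrane subunit, had the highest change of DM against NC, 0.200 ± 0.097 (limma adjusted p = 0.492).

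Complex II, succinate dehydrogenase, links the citric acid cycle to the chain and has no subunit encoded in mitochondrial DNA. Its 4 members averaged 9.13 ± 0.046 in AngIV, 9.03 ± 0.088 in DM and 9.10 ± 0.158 in NC (log2, SD, n = 4 each). All 4 had a positive change in AngIV against DM, from 0.004 for Sdhc to 0.211 ± 0.121 for Sdhd, and 0 had an unadjusted p under 0.05. The direction turned for 2 of them: Sdhb had -0.012 and Sdhc -0.087 with the atrial covariate, and -0.091 and -0.135 without the 5 arrays high in atrial markers. Sdhc, close to 0, also turned in other settings. Sdha, the flavoprotein that oxidises succinate, had 0.082 ± 0.10 (limma adjusted p = 0.832) and Sdhb, the iron-sulfur subunit, 0.098 ± 0.097 (adjusted p = 0.781). Sdhb read 10.68, 10.72, 10.68 and 10.71 on AngIV replicates 1 to 4, 10.51, 10.45, 10.79 and 10.64 on DM replicates 1 to 4, and 10.65, 10.73, 10.85 and 10.88 on NC replicates 1 to 4. The AngIV arrays of Sdhb fell within the range of both other groups.

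Complex III passes electrons from ubiquinol to cytochrome c. Its 6 members averaged 9.69 ± 0.049 in AngIV, 9.74 ± 0.066 in DM and 9.81 ± 0.066 in NC (log2, SD, n = 4 each). A negative change was found for 5 of 6 in both AngIV against DM and AngIV against NC, with medians of -0.006 and -0.095. Of these, Uqcrc2, Uqcrq and Uqcrfs1 lay close to 0 in AngIV against DM (-0.008, -0.004 and -0.001). Cyc1, cytochrome c1, read 8.87, 9.05, 8.87 and 8.82 on AngIV replicates 1 to 4, 8.83, 9.01, 9.25 and 9.41 on DM replicates 1 to 4, and 9.19, 9.05, 9.16 and 9.09 on NC replicates 1 to 4. It had the lowest change of any member in AngIV against DM, -0.226 ± 0.119 (limma adjusted p = 0.595). DM replicates 1 and 2 lay in the AngIV range and DM replicates 3 and 4 above every NC array. Uqcrc2, a core protein on the matrix side, had -0.248 ± 0.120 in AngIV against NC (adjusted p = 0.281) and -0.241 ± 0.120 in DM against NC (adjusted p = 0.509). Its companion Uqcrc1 had 0.045 ± 0.101 and 0.017 ± 0.101 in those comparisons, and the Rieske iron-sulfur protein gene Uqcrfs1 -0.104 ± 0.089 and -0.103 ± 0.089, none with an adjusted p below 0.576.

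Complex IV, cytochrome c oxidase, hands electrons to oxygen, and its 7 members are nuclear subunits around a core encoded in mitochondrial DNA. They averaged 11.01 ± 0.021 in AngIV, 11.05 ± 0.092 in DM and 11.05 ± 0.046 in NC (log2, SD, n = 4 each). Cox4i1, the main regulatory subunit, read 11.15, 11.10, 11.06 and 11.12 on AngIV replicates 1 to 4, 11.04, 11.03, 10.96 and 11.07 on DM replicates 1 to 4, and 10.84, 10.97, 10.96 and 10.91 on NC replicates 1 to 4. It was higher on every AngIV array than on any NC array, by 0.185 ± 0.082 (limma adjusted p = 0.239). Cox8b, the subunit form of heart and skeletal muscle, read 10.64, 10.66, 10.72 and 10.70 on AngIV replicates 1 to 4, 10.55, 10.80, 10.89 and 11.03 on DM replicates 1 to 4, and 10.85, 10.87, 10.85 and 10.83 on NC replicates 1 to 4. It was lower on every AngIV array than on any NC array, with a change of -0.169 ± 0.102 (limma adjusted p = 0.398), and the DM arrays lay on both sides of the NC range. Cox5a had changes of 0.004 ± 0.095, -0.006 ± 0.095 and -0.002 ± 0.095 in AngIV against DM, DM against NC and AngIV against NC.

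The complexes moved by little between groups. NC replicate 1 had the lowest mean of the 4 NC arrays for each of the complexes I to V, and DM replicate 1 the lowest of all 12 arrays for complexes I, IV and V. Complex II went its own way on some arrays. On DM replicate 4, complexes I and IV averaged 9.86 and 11.16, the highest of all 12 arrays, while complex II averaged 8.96, below every AngIV array and below 3 of the 4 NC arrays. The plot of complex means sets them above the atrial markers of the same arrays.

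**Figure D4:**
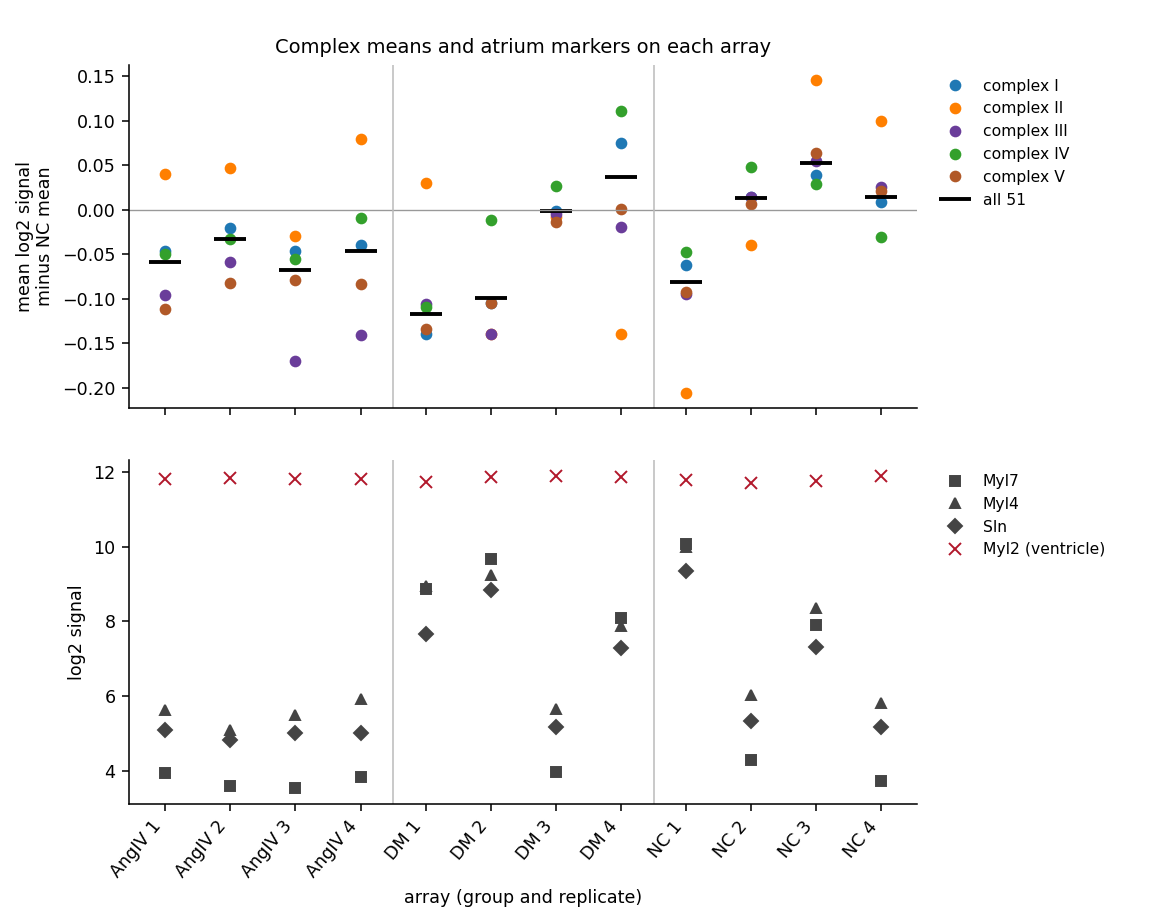
Upper panel: mean log2 signal of each complex (coloured points) and of all 51 members (black bars) on each array, minus the mean of the 4 NC arrays. Lower panel: log2 signal of the atrial markers Myl7, Myl4 and Sln and of the ventricular marker Myl2 on the same arrays; the 4 AngIV arrays are low in the atrial markers and close together in the upper panel, and the DM and NC arrays spread in both.

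Other genes of the pathway were set beside the members. They were taken from lists written for this purpose, with earlier results of these data known. Of 32 further nuclear subunits and isoforms tested, 0 were called in any comparison. Their changes were positive for 7 of 32 in AngIV against DM, 16 in DM against NC and 8 in AngIV against NC. Of all genes 52.9%, 49.6% and 50.6% were positive there. At an unadjusted p under 0.05, 7 were lower and 2 higher in AngIV against NC, where 7.74% and 10.9% of all genes were. In AngIV against DM 1 was lower and 0 higher (3.51% and 5.27% of all genes). The counts in DM against NC were also 1 and 0 (5.08% and 5.62% of all genes). Cox6a1, the widely expressed form of a complex IV subunit, read 8.49, 8.33, 8.49 and 8.39 on AngIV replicates 1 to 4, 8.41, 8.83, 9.04 and 9.02 on DM replicates 1 to 4, and 8.79, 8.96, 8.70 and 8.77 on NC replicates 1 to 4. It had -0.397 ± 0.129 in AngIV against DM (limma adjusted p = 0.46) and -0.377 ± 0.129 in AngIV against NC (adjusted p = 0.132), with DM replicate 1 in the AngIV range. Atpif1, which encodes the inhibitor of ATP synthase running in reverse, had 0.389 ± 0.120 in AngIV against NC (adjusted p = 0.0982). Ndufc1 had -0.37 ± 0.119 in the same comparison (limma adjusted p = 0.113).

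Of 46 assembly factors tested, 1 was called, in AngIV against NC, where 2.15% of all genes were called. Ndufaf4, which helps to assemble complex I, averaged 8.16 ± 0.09 in AngIV and 8.68 ± 0.16 in NC (log2, SD, n = 4 each) and fell by 0.515 ± 0.125 (limma adjusted p = 0.0461). In AngIV against NC 11 assembly factors (23.9%) were lower and 0 higher at an unadjusted p under 0.05, with a median change of -0.107; of all genes 7.74% were lower and 10.9% higher. In AngIV against DM 4 were lower and 1 higher, with a median of -0.033, against 3.51% and 5.27% of all genes. In DM against NC 5 were lower and 1 higher, with a median of -0.092, against 5.08% and 5.62% of all genes. The adjusted p of Ndufaf4 lay close to the threshold. Neither its call nor these counts were examined in the atrial settings or with single arrays left out. The part of atrial tissue in them was not tested.

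Of 16 regulators of mitochondrial biogenesis tested, 0 were called. Ppargc1a, which encodes the coactivator PGC-1alpha, read 9.37, 9.34, 9.40 and 9.75 on AngIV replicates 1 to 4, 9.57, 9.41, 9.39 and 9.18 on DM replicates 1 to 4, and 8.83, 9.12, 8.70 and 9.20 on NC replicates 1 to 4. The AngIV arrays lay above every NC array, by 0.502 ± 0.134 (limma adjusted p = 0.063), while the DM arrays, at 0.424 ± 0.134 over NC (adjusted p = 0.262), overlapped them at DM replicate 4. Gabpa, which encodes the DNA-binding part of the ETS factor GABP, had 0.148 ± 0.095 in AngIV against DM (adjusted p = 0.67). Nrf1 and Tfam read close to background and were not called. Of 7 genes for creatine kinase and for carriers and channels of ADP, ATP and phosphate, Vdac2, an outer membrane channel, had 0.219 ± 0.091 in AngIV against DM (adjusted p = 0.535), and 6 of the 7 had a positive change there.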

How the data were processed

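Myocardium of 12 mice, 4 in each of AngIV, DM and NC, was measured on single-colour Affymetrix arrays. The authors deposited log2 signals, which RMA had summarised to 1 value per probe set and array, per the submitters' processing notes; its version and the chip description are not given in the sources used here. The log2 scale was read from the values. RMA as usually run corrects background, normalizes by quantiles and summarises probes. Quantile normalization hides a change in total mRNA, and RMA compresses differences. Groups were taken from the titles, since the disease state tag contradicts them for NC and AngIV.

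Probe sets were named from the platform annotation, and of the 13653 genes kept after leaving out the dimmest 30% (mean log2 signal under 3.40) each had 1 probe set, the one of highest mean. Differences were fitted with limma 3.58.1 in R 4.3.3 (lmFit, eBayes) over all 12 arrays with a mean per group, and adjusted by Benjamini-Hochberg over the 13653 genes; errors of changes are standard errors. The fit was run on simulated data with independent noise for each gene as a check of the code. No result given here rests on that run. The number of arrays limits the precision: the median standard error was 0.127 for all genes and 0.097 for the members. Arrays correlated at 0.961 to 0.986 within groups.

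In the promoter search the motifs of YY1 and NRF1 were shortened to 9 letters after a longer form had been searched. The members and lists were chosen with earlier results of these data known. Named members were, per comparison, up to 6 with the lowest unadjusted p under 0.05 in each direction, any with an adjusted p under 0.05, the highest and lowest change of each complex, and a fixed core of subunits; members without overlap between groups, and those named for a single array, were added after their values were seen. From other lists up to 3 genes per comparison were named, with Ppargc1a, Nrf1, Gabpa and Tfam. Alternatives were other filters, the mean of probe sets, a trend in the prior, the replicate number as a block, the atrial mean as a covariate, centred arrays, only the 2 groups compared, each array left out and, added after seeing the data, the 5 arrays high in atrial markers left out.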

Additional observations from a re-analysis of the deposited data

Results flagged for a closer look

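Among 171 sets of 4 arrays (each of the 51 members and of 6 mean levels in each group), 4 (2.34%) held 1 array far from the other 3, by a gap to the nearest array that took up more of the group's range than Dixon's 95% critical value allows. Chance alone flags about 1 in 20 groups. Ndufs4, an accessory subunit of complex I, was low on AngIV replicate 4 (9.34, against 9.47 to 9.48 on the others; gap 0.917 of the range). Ndufv2, an iron-sulfur subunit of complex I, was high on AngIV replicate 2 (10.09, with the next array at 9.79 and the lowest at 9.74; gap 0.865). Uqcrc2 was low on NC replicate 1 (8.05, against 8.47 to 8.53; gap 0.876), an array whose atrial marker mean was 8.02 and whose smooth muscle marker mean was 8.10, the highest of the 12 for both. The mean over complex V was low on AngIV replicate 1 (10.68, against 10.71 on the others; gap 0.884). Neither called member, Atp5g1 or Atp5d, was among them.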

How the results depend on the processing

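The 4 arrays per group limit what can be seen: a member's change had a median standard error of 0.097. No DM against NC or AngIV against DM setting called a member. Of 1197 alternative values for 57 named pairs of member and comparison, 1117 kept direction and side of the threshold. A further 60 changed sign with an unadjusted p over 0.05 in both settings (main changes up to 0.098), and 0 reversed past the threshold. The remaining 20 were no longer called. All 20 belonged to Atp5g1 or Atp5d in AngIV against NC, the only pairs that the main fit called. Of 315 medians of complexes, 312 moved by less than the spread between replicates, and complex IV moved without DM replicate 1 or 4.

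In AngIV against DM, members higher at an unadjusted p under 0.05 (1 as reported) were 0 with dim genes kept, with the replicate block, with the atrial covariate, with centred arrays and without the 5 arrays high in atrial markers, 2 with only the 2 groups and 3 with a trend and robust prior; members lower (0) were 2 with the trend, 2 with the covariate and 3 without the 5 arrays. In DM against NC, genes called (3) were 20 with the dimmest 50% left out, 37 with the trend, 5 with the covariate, 5 with only the 2 groups and 0 without the 5 arrays, members higher (0) were 1 with the dimmest 50% left out and 2 with the trend, and members lower (4) were 9 with the trend and 0 without the 5 arrays. In AngIV against NC, genes called (293) were 492 with the dimmest 50% left out, 616 with the trend, 466 with only the 2 groups and 102 without the 5 arrays. Members called (2) were 0 with dim genes kept, 1 with the replicate block (adjusted p = 0.0495 for Atp5g1 and 0.0611 for Atp5d) and 0 without the 5 arrays. Members higher (2) were 1 with dim genes kept, 4 with the trend, 1 with the block, 0 with the covariate, 1 with centred arrays, 1 with only the 2 groups and 0 without the 5 arrays, and members lower (5) were 9 with the dimmest 50% left out, 12 with the trend, 8 with the covariate and 8 with centred arrays. Some settings change the number of genes or arrays, and the cause of these moves was not tested.

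Leaving out 1 array gave, in AngIV against DM, 0 to 5 genes called, 0 members called, 0 to 4 members higher, 0 to 3 lower and a median change from -0.074 to 0.012. In DM against NC it gave 3 to 30 genes, 0 members called, 0 to 1 higher, 2 to 6 lower and a median from -0.071 to -0.001. In AngIV against NC it gave 104 (without AngIV replicate 4) to 469 (without DM replicate 1) genes, 0 to 2 members called, 0 to 4 higher, 3 to 8 lower and a median from -0.057 to -0.022. The deviations of same-numbered arrays correlated at -0.115 to 0.208, with 2 of 12 pairs over 0.1. Those of arrays with different numbers correlated at -0.214 to 0.233. The replicate numbers were therefore not used as pairs in the main fit, but such correlations cannot show whether samples were paired.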
